A study of Homo sapiens with 18 samples.

Results

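The measurements described here ask whether the difference in gene expression between 2 AceTAG compounds depends on p53. The 12 libraries used, of 18 in the series, were chosen by their labels and form 4 groups of 3. The cells were H1299, a human line from a non-small cell lung cancer that makes no p53 protein of its own, with a transgene for wild-type p53-FKBP12F36V-HA under doxycycline control. An AceTAG compound is a heterobifunctional molecule: one end binds the FKBP12F36V tag and the other an acetyltransferase, which is thereby recruited to the tagged protein. The labels call them AceTAG p300/CBP-1 and AceTAG PCAF/GCN5-4, shortened here to p300/CBP compound and PCAF/GCN5 compound. Both were given for 24 h, to cells plated 24 h earlier, with p53-FKBP12F36V induced or not induced. Cells of all 4 groups were thus compound-treated and differed in the compound and in the state named by the label. No dose is stated in the labels. Only titles of induced samples name the fusion, and it is not stated whether the non-induced cells were given doxycycline, so induced p53 and doxycycline itself cannot be told apart. DMSO libraries, 3 for each state, entered only 1 alternative fit and are otherwise quoted as levels without compound. Nothing in the labels says that replicates came from separate cultures, and each p-value therefore measures the spread between these samples, which may be technical.

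The transcription factor p53 binds response elements near its target genes and raises their transcription. Its targets include CDKN1A, which halts the cell cycle, MDM2, which marks p53 itself for degradation, and death genes such as FAS and BBC3. Genes of the cell cycle fall when p53 is active, largely through p21 and the DREAM repressor complex. The acetyltransferases p300 and CBP, and the related pair PCAF (KAT2B) and GCN5 (KAT2A), are known to acetylate lysines of p53 and of histones. In lung cancer lines without p53, such as H1299, restored p53 is known to slow growth.

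Library totals in the 12 libraries ran from 19.3 to 29.2 M counts, so that the limit of 3 counts allowed by a count of 0 is a level of 0.103 to 0.156 counts per 1000000 (CPM), for counting error only. Mitochondrial transcripts took 1.32% to 2.45% of the counts. CPM divides a gene's count by the library total. It is a share of the RNA sequenced, and fewer cells and less RNA per cell cannot be told apart from it. On the first principal component, with 48.2% of the variance, the 6 induced and the 6 non-induced libraries separated. On the second, with 8.45%, replicate 2 of induced cells under the PCAF/GCN5 compound stood apart at -36.6, while the other libraries lay between -11.7 and 11.6. The line's own markers VIM, KRT8, KRT18, CAV1 and AXL were all present, but the lung lineage genes NKX2-1, SFTPC, SFTPB, SCGB1A1 and NAPSA were at or near 0. Summed over the list, 12 immune markers came to 0.356 to 0.986 CPM, with 4 of them without a count in any library, and 10 fibroblast and endothelial markers to 0.556 to 2.07 CPM. The 9 erythroid and liver markers summed to 24.8 to 27.4 CPM in induced libraries of the PCAF/GCN5 compound, 20.3 to 21.9 CPM in those of the p300/CBP compound and 14.3 to 17.8 CPM without induction, and their part in the results was not tested.

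The difference between compounds changed with p53 induction for 51 of 15656 genes tested, 0.326% (edgeR quasi-likelihood test, Benjamini-Hochberg adjusted p below 0.05), and 1314 genes had an unadjusted p below 0.05. The quantity tested is an interaction on the log2 scale: the difference p300/CBP minus PCAF/GCN5 compound in induced cells, minus the same difference in non-induced cells. For 40 genes (0.255%) it was positive, meaning that expression under the p300/CBP compound gained on that under the PCAF/GCN5 compound once p53 was induced. For the other 11 genes (0.0703%) it was negative. By itself, the difference between compounds passed the test for 3.39% of all genes in induced cells and 2.43% in non-induced cells. Of the 51, 42 had a difference between compounds that passed the test in induced cells and not in non-induced cells, and 34 of these were among the 40. Another 5 passed in both states with opposite signs, 2 in non-induced cells only, 1 in both states with the same sign and 1 in neither. With an unadjusted p below 0.05 in each state in place of the adjusted one, 29 were called in induced cells only and 17 in both with opposite signs. All 40 genes rose with induction under the p300/CBP compound, against a background of 12.9% of genes that rose, and 30 of the 40 rose under the PCAF/GCN5 compound, against 14% (the same 12 libraries gave these calls, so they are a description of the 40). Over all genes tested the median interaction was -0.01 and 48.8% of values were positive.

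**Figure D1:**
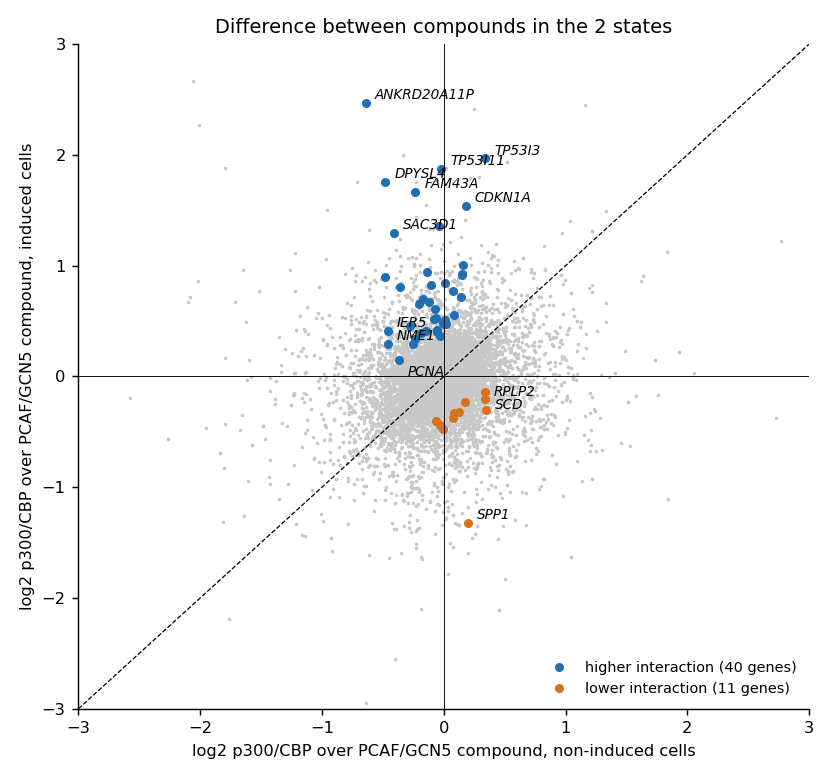
Difference between the compounds in non-induced cells (horizontal axis, log2) and in induced cells (vertical axis, log2), 1 point per gene tested, with 6 genes outside the axes. The dashed line marks an equal difference in both states; blue points are the 40 genes with a positive interaction and lie above it, orange points the 11 with a negative one and lie below it.

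RNA of the enzymes the compounds are named for gave no interaction call. Neither protein levels nor acetylation were measured in these files. The interaction was -0.08 for EP300 (95% interval -0.26 to 0.09), -0.15 for CREBBP (-0.36 to 0.07), -0.02 for KAT2A (-0.25 to 0.21) and -0.02 for KAT2B (-0.21 to 0.18). FKBP1A, which encodes the FKBP12 protein from which the tag derives, had -0.09 (-0.30 to 0.12). With 3 libraries a group, these intervals do not show equal levels.

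Among p53 targets for cell cycle arrest and feedback, 3 of 30 tested genes (10%) had a positive call and none a negative one: CDKN1A, GPC1 and GADD45A. Over all genes, 0.255% had a positive call and 0.0703% a negative one. CDKN1A (ENSG00000124762, chr6:36676460-36687339) encodes p21, the inhibitor of cyclin-dependent kinases through which p53 stops the cycle. It stood at 2332, 2451 and 2386 CPM in induced libraries under the p300/CBP compound and at 829, 806 and 859 CPM under the PCAF/GCN5 compound. In non-induced libraries it stood at 105, 109 and 100.01 CPM and 87.01, 92.6 and 97.9 CPM. The compounds differed in induced cells with a wide gap between the libraries, and in non-induced cells only narrowly, though without overlap. In DMSO, CDKN1A was at 352 ± 25.2 CPM (SD, n = 3) with induction and 89.6 ± 3.37 CPM without. The difference between compounds was 1.54 ± 0.06 (log2, SE) in induced cells, a 2.91-fold ratio, and 0.18 ± 0.06 in non-induced cells, which did not pass (adjusted p = 0.146). The interaction was 1.36 ± 0.09 (95% interval 1.18 to 1.55, edgeR adjusted p = 1.24e-08).

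GPC1, a heparan sulfate proteoglycan of the cell surface, stood at 303, 298 and 299 CPM in induced cells under the p300/CBP compound and 176, 159 and 175 CPM under the PCAF/GCN5 compound. Without induction the libraries overlapped, with means of 136 ± 13.1 and 135 ± 4.01 CPM (SD, n = 3), and the interaction was 0.83 ± 0.10 (edgeR adjusted p = 8.70e-05). GADD45A, a damage-inducible regulator of growth and repair, had a smaller interaction of 0.54 ± 0.11 (adjusted p = 0.0403, and 0.0559 to 0.138 in the 10 of 12 fits without 1 library that lost the call), made of 0.29 in induced and -0.25 in non-induced cells. MDM2, which encodes the ubiquitin ligase that marks p53 for degradation, had no interaction call. It stood at 677, 746 and 724 CPM in induced libraries of the p300/CBP compound and 648, 776 and 833 CPM in those of the PCAF/GCN5 compound. Without induction its means were 73.1 ± 4.65 and 71.9 ± 3.87 CPM. Its libraries overlapped between compounds in both states, it rose by 3.28 and 3.35 with induction, and its interaction of -0.07 (95% interval -0.29 to 0.14) did not pass (adjusted p = 0.895). MDM2's interval lies wholly below that of CDKN1A. The 2 genes were compared by these intervals only, with no test between them.

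The promoters of CDKN1A and TP53I3, the 2 called genes with the smallest interaction p, are printed to show the sequence at their starts, beside that of JAG1, the called gene in which a p53 element was found. All are from RefSeq on GRCh38.p14, 250 bases before to 50 after the start, read on the gene's strand. Capitals mark the 2 half-sites of 10 bases of a p53 element, allowing 2 mismatches, none at the core C and G, and a spacer of up to 13 bases, searched on both strands, or the hexamer TTTGAA (the element known as CHR in DREAM targets) or the pentamer CCAAT, likewise on both strands. Neither of the first 2 windows holds any of these letters as searched.
CDKN1A, chr6:36678464-36678763, plus strand: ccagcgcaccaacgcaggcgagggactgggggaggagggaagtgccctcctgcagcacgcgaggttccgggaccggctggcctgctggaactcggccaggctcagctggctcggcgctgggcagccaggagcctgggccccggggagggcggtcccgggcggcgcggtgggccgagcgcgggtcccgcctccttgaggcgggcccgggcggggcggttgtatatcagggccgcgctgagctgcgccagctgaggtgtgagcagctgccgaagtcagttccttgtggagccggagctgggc
TP53I3, chr2:24084785-24085084, minus strand: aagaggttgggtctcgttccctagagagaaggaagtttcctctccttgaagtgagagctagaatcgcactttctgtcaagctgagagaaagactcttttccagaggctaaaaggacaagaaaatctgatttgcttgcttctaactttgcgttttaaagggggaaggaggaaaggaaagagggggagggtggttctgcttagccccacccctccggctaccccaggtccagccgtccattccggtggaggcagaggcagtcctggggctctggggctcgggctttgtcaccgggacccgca
JAG1, chr20:10673950-10674249, minus strand: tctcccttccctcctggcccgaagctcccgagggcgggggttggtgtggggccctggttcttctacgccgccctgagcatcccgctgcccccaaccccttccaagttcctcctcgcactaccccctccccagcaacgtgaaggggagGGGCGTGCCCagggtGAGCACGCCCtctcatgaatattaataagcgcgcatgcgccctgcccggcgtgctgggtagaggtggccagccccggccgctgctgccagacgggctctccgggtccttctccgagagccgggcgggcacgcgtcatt
The JAG1 element has a spacer of 5 bases and 2 mismatches, and its first base is at -103 from the start site. JAG1 was picked for print after its match was seen. Among the 31 of 40 positive genes with a promoter in the table, it was the only match, 3.23%, against 2.34% of 11192 promoters of tested genes. For TTTGAA the shares were 12.9% and 9.46%, and for CCAAT 41.9% and 36.6%. No match in this window says nothing of elements elsewhere: the known p53 sites of CDKN1A lie farther upstream than the window reaches.

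Targets in apoptosis and autophagy gave 5 positive calls of 29 tested (17.2%) and no negative one, against 0.255% and 0.0703% of all genes. TP53I3 (ENSG00000115129, chr2:24077433-24085861) encodes a quinone oxidoreductase and is a long-known p53 target. It stood at 630.2, 635 and 633 CPM in induced libraries under the p300/CBP compound and 159.6, 153 and 178 CPM under the PCAF/GCN5 compound. Without induction it stood at 27.3, 28.6 and 31.1 CPM and 24.99, 20.02 and 23.4 CPM. The p300/CBP libraries were the higher ones in both states, without overlap, and TP53I3 was the one gene of the 51 called in both states with the same sign. DMSO levels were 78.4 ± 5.31 CPM with and 20.7 ± 0.382 CPM without induction (SD, n = 3). The difference between compounds was 1.97 ± 0.07 in induced cells and 0.34 ± 0.08 in non-induced cells (edgeR adjusted p = 1.92e-13 and 0.0232). Its interaction was 1.63 ± 0.10 (95% interval 1.42 to 1.84, adjusted p = 1.24e-08).

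TP53I11, another p53-induced gene, was low without induction. There it had 13, 11 and 2 counts under the p300/CBP compound and 13, 10 and 7 counts under the PCAF/GCN5 compound. With induction it stood at 91.9, 99.98 and 99.7 CPM and 27.4, 26.02 and 27.1 CPM. The induced libraries were far apart and the non-induced ones overlapped. Its interaction of 1.89 ± 0.40 carried a wide 95% interval, 1.05 to 2.74, and passed narrowly (edgeR adjusted p = 0.0447). The call was kept in 1 of 12 fits that left out 1 library, the one without replicate 1 of non-induced cells under the p300/CBP compound. In the 11 others the adjusted p ran from 0.0543 to 0.21. The difference in induced cells alone was 1.87 ± 0.09, a 3.66-fold ratio.

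FAS, the death receptor, stood at 74.5, 80.1 and 78.7 CPM and 39.3, 49.1 and 45.1 CPM in induced libraries of the p300/CBP and PCAF/GCN5 compound, and at 8.59, 7.88 and 11.1 CPM and 10.1, 10.7 and 8.46 CPM in non-induced ones. The compounds' libraries were apart with induction and overlapped without it. Its interaction was 0.93 ± 0.15 (edgeR adjusted p = 0.00318). PMAIP1, which encodes the BH3-only death protein NOXA, had an interaction of 0.57 ± 0.10 (adjusted p = 0.00906). Its induced means were 68.4 ± 4.14 CPM under the p300/CBP compound and 52.9 ± 3.14 CPM under the PCAF/GCN5 compound, and the DMSO mean, 77.99 ± 11.7 CPM (SD, n = 3), was above both, though its libraries overlapped with those of the p300/CBP compound. TRAF4, an adaptor of the TRAF family, had 0.57 ± 0.12 (adjusted p = 0.0304, and 0.056 to 0.115 in the 9 of 12 fits that lost the call), with 0.34 in induced and -0.23 in non-induced cells. BBC3, which encodes the BH3-only protein PUMA, stood at 30.7, 33.2 and 28.2 CPM and 18.4, 12.9 and 17.1 CPM in induced cells and at 4.47, 5.47 and 5.14 CPM and 7.31, 4.06 and 4.40 CPM in non-induced cells. Its interaction of 1.01 (95% interval 0.50 to 1.51) is of the size seen for FAS, but it did not pass (adjusted p = 0.0992). The non-induced PCAF/GCN5 libraries of BBC3 spread the widest of its 4 groups relative to their mean.

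Among p53 targets in DNA repair and metabolism, 2 of 38 (5.26%) had a positive call and none a negative one, against 0.255% and 0.0703% of all genes. CMBL, a hydrolase, stood at 235, 235 and 240.01 CPM and 124, 127 and 128 CPM in induced cells under the p300/CBP and PCAF/GCN5 compound, and at means of 50.9 ± 1.97 and 45.9 ± 3.16 CPM without induction. The interaction was 0.78 ± 0.08 (edgeR adjusted p = 2.69e-05). PLTP, the phospholipid transfer protein of plasma, stood at 119, 131 and 134 CPM and 68.4, 65.6 and 60.4 CPM with induction. Without induction its means were 16.1 ± 0.847 and 14.5 ± 0.699 CPM, and its interaction was 0.85 ± 0.11 (adjusted p = 0.000255). ANGPTL4, an inhibitor of lipoprotein lipase from the hypoxia list, had 0.46 (95% interval 0.24 to 0.68) and did not pass (adjusted p = 0.0704).

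Over the 3 groups joined, 10 of 97 tested p53 targets (10.3%) had a positive interaction call and none a negative one, against 0.255% and 0.0703% of all genes. Their median interaction was 0.14, with 76 of 97 values above 0, beside a median of -0.01 and 48.8% of values above 0 over all genes. INPP5D and PHLDA3 were near or under the detection limit without induction, where both compounds' means were at most 0.149 CPM. With induction INPP5D had means of 2.52 and 1.31 CPM and PHLDA3 1.76 and 1.10 CPM, and their interaction did not pass (adjusted p = 0.490 and 0.523). In induced cells 27 of the 97 were higher and 6 lower under the p300/CBP compound, where 1.4% and 1.99% of all tested genes were called. In non-induced cells the counts were 4 higher and 1 lower, where 0.683% and 1.74% of all genes were called. Well-known targets whose interaction values were near 0 included CCNG1 at 0.02, ZMAT3 at 0.04, BTG2 at 0.05 and PPM1D at -0.01. BAX, the pore-forming death protein, had 0.51 (adjusted p = 0.243) and SESN1, a restraint on mTORC1, 0.52 (adjusted p = 0.0781).

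**Figure D2:**
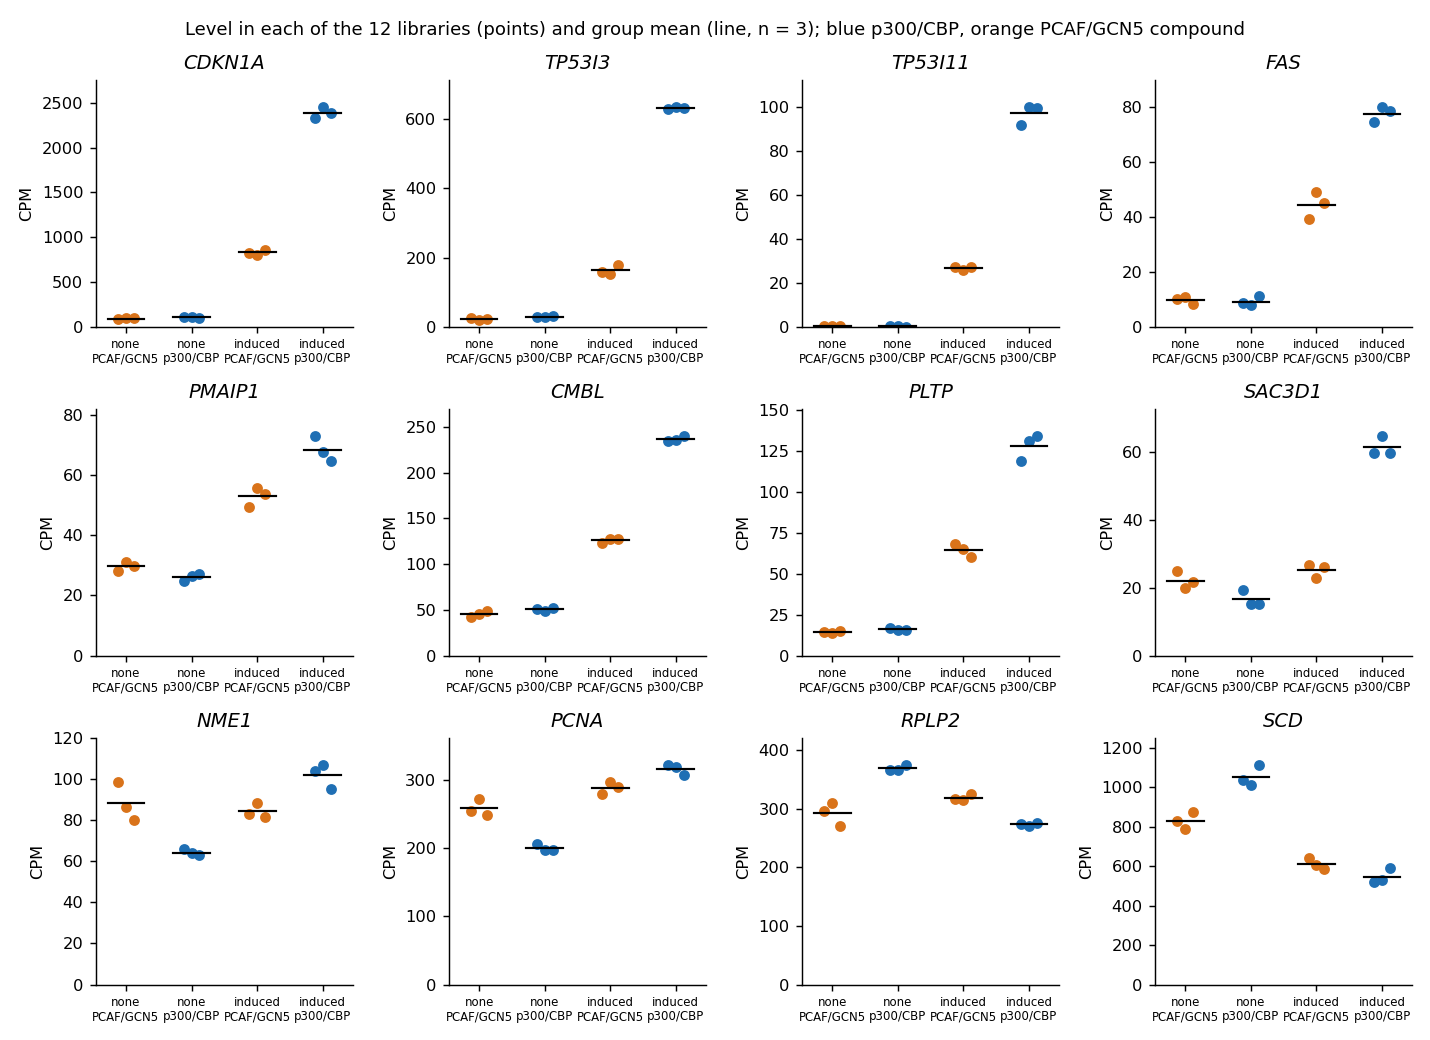
CPM of 12 called genes in each of the 12 libraries (points) with group means (lines, n = 3), on axes that start at 0; blue marks the p300/CBP and orange the PCAF/GCN5 compound. CDKN1A and TP53I3 show separated induced libraries. SAC3D1, NME1 and RPLP2 change which compound is higher between the states, with a call in each state. The libraries of PCNA and PMAIP1 also change order without overlap, with a call in 1 state only.

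In 5 genes the order of the compounds turned over with induction, with a call in each state. SAC3D1, which encodes a centrosome-associated protein, stood at 59.8, 64.7 and 59.7 CPM and 26.7, 22.8 and 26.1 CPM in induced libraries of the p300/CBP and PCAF/GCN5 compound. In non-induced libraries it stood at 19.4, 15.2 and 15.2 CPM and 24.9, 19.9 and 21.6 CPM. The p300/CBP libraries were all higher with induction and all lower without it. The differences were 1.30 ± 0.10 and -0.41 ± 0.11, and the interaction 1.71 ± 0.14 (edgeR adjusted p = 1.20e-06). With induction SAC3D1 rose by 1.86 under the p300/CBP compound. Under the PCAF/GCN5 compound its value of 0.16 did not pass (adjusted p = 0.275).

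NME1, a nucleoside diphosphate kinase, stood at 104, 107 and 95.3 CPM and 83.1, 88.3 and 81.4 CPM with induction and at 65.7, 63.99 and 62.8 CPM and 98.3, 86.3 and 79.8 CPM without it. The induced libraries lay close together and the non-induced PCAF/GCN5 libraries lay above those of the p300/CBP compound. Its differences were 0.29 ± 0.07 and -0.46 ± 0.07, and its interaction 0.75 ± 0.10 (edgeR adjusted p = 0.000368). IER5, an immediate early response gene, had 0.41 in induced cells, -0.46 in non-induced cells and an interaction of 0.87 ± 0.15 (adjusted p = 0.00546). RPLP2, a protein of the ribosomal stalk, turned over the other way. It stood at 275, 270.3 and 275 CPM and 317, 315 and 325 CPM with induction, and at 366, 366 and 375 CPM and 297, 309 and 271 CPM without. Its interaction of -0.54 ± 0.07 (adjusted p = 0.000576) was the one call among 30 ribosomal protein genes (3.33%, against 0.326% of all genes). The pseudogene ANKRD20A5P had 0.89, -0.48 and an interaction of 1.38 ± 0.17 (adjusted p = 0.000154). Its relative ANKRD20A11P had the largest interaction called, 3.11 ± 0.48, from 7, 3 and 9 counts and 13, 10 and 11 counts without induction. Both belong to a family of near-identical copies, so how the reads were shared among them is uncertain.

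PCNA and SCD were called in non-induced cells and not in induced ones. PCNA, the sliding clamp of DNA replication and also a p53 target, stood at 322, 318 and 307 CPM and 279, 297 and 289.6 CPM with induction and at 205, 198 and 197 CPM and 254, 272 and 249 CPM without it. The p300/CBP libraries were all below those of the PCAF/GCN5 compound without induction and all above them with it. Its difference was -0.37 ± 0.05 in non-induced and 0.15 ± 0.05 in induced cells, with an interaction of 0.52 ± 0.08 (edgeR adjusted p = 0.00151). SCD, the desaturase that makes monounsaturated fatty acids, stood at 1038, 1012 and 1113 CPM and 828, 786 and 877 CPM without induction and at 522, 532 and 588 CPM and 642, 607 and 587 CPM with it. Its induced libraries overlapped and its non-induced ones did not, and the interaction was -0.49 ± 0.09 (adjusted p = 0.0104). ABCD2, a peroxisomal fatty acid transporter, had an interaction of -0.65 ± 0.14 (adjusted p = 0.0447) from -0.30 and 0.35, neither of which passed by itself.

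The other genes with a positive interaction are on none of the 3 p53 lists used. These lists do not hold every p53 target: PCNA and RPS27L, for example, are missing from them. DPYSL4 is the one call among 12 genes of a list of neural-type low genes (8.33%, against 0.326% of all genes). DPYSL4, a protein of the collapsin response mediator family, stood at 52.7, 58.2 and 51.6 CPM and 15.6, 15.2 and 17.97 CPM with induction and at 2.84, 1.30 and 1.97 CPM and 1.96, 2.78 and 4.03 CPM without it. The induced libraries were far apart and the non-induced ones overlapped, for an interaction of 2.24 ± 0.28 (edgeR adjusted p = 0.000235). FAM43A stood at 21.8, 22.5 and 20.1 CPM and 6.21, 6.61 and 7.74 CPM with induction and at means of 4.08 ± 0.285 and 4.80 ± 0.288 CPM without it, an interaction of 1.90 ± 0.17 (adjusted p = 2.21e-06). Of the genes for cell surface receptors and their ligands, FGFR3, a fibroblast growth factor receptor, had the largest interaction, 1.40 ± 0.17, from induced means of 17.4 ± 2.22 and 6.84 ± 0.453 CPM. EFNB1, an ephrin ligand, had 1.16 ± 0.17, with induced means of 30.6 ± 3.73 and 17.7 ± 1.85 CPM. The receptor NOTCH1 had 1.08 ± 0.16 and its ligands JAG2 and JAG1 had 0.87 ± 0.14 and 0.49 ± 0.10. NOTCH1 stood at 19.5, 26.9 and 21.5 CPM and 12.4, 11.1 and 12.2 CPM with induction and at 12.97 ± 0.902 and 14.3 ± 1.15 CPM without it. With induction NOTCH1 rose by 0.78 under the p300/CBP compound and had -0.30 under the PCAF/GCN5 compound (adjusted p = 0.0662). TGFBR1, a receptor of TGF-beta, had 0.47 ± 0.10, the integrin subunit ITGA3 0.47 ± 0.10 and the small GTPase HRAS 0.73 ± 0.13.

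Among genes of protein turnover and signalling, the ubiquitin ligase WWP1 had an interaction of 0.47 ± 0.07, the F-box protein FBXO22 0.46 ± 0.08, the phosphatase PPM1A 0.50 ± 0.08 and the kinase RIPK4 0.67 ± 0.10. RIPK4 moved in opposite directions with induction: it rose by 0.41 under the p300/CBP compound and fell by 0.26 under the PCAF/GCN5 compound. WDR34, a dynein chain of the primary cilium, did the same, with 0.61 and -0.24, for an interaction of 0.86 ± 0.09. IKBIP stood at 307 ± 8.17 and 195 ± 5.95 CPM with induction and at 85.2 ± 3.25 and 92.6 ± 3.78 CPM without it, an interaction of 0.79 ± 0.08. RPS27L, a ribosomal protein paralog also known as a p53 target, had 0.57 ± 0.09, with induced means of 318 ± 6.98 and 196 ± 18.1 CPM. PHPT1, a phosphohistidine phosphatase, had 0.77 ± 0.08, and AHCY, which hydrolyses S-adenosylhomocysteine, 0.40 ± 0.08. MICALL1 had 0.60 ± 0.10, ZBTB5 0.59 ± 0.09, FRMD8 0.56 ± 0.11, GXYLT1 0.45 ± 0.08 and the unclassified transcript AL031587.5, which lies directly downstream of MICALL1, 0.69 ± 0.13. The p300/CBP libraries were all above the PCAF/GCN5 libraries in induced cells for all 40 genes. The 40 were chosen by these same libraries and the share over all genes was not computed, so this is a description only.

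**Figure D3:**
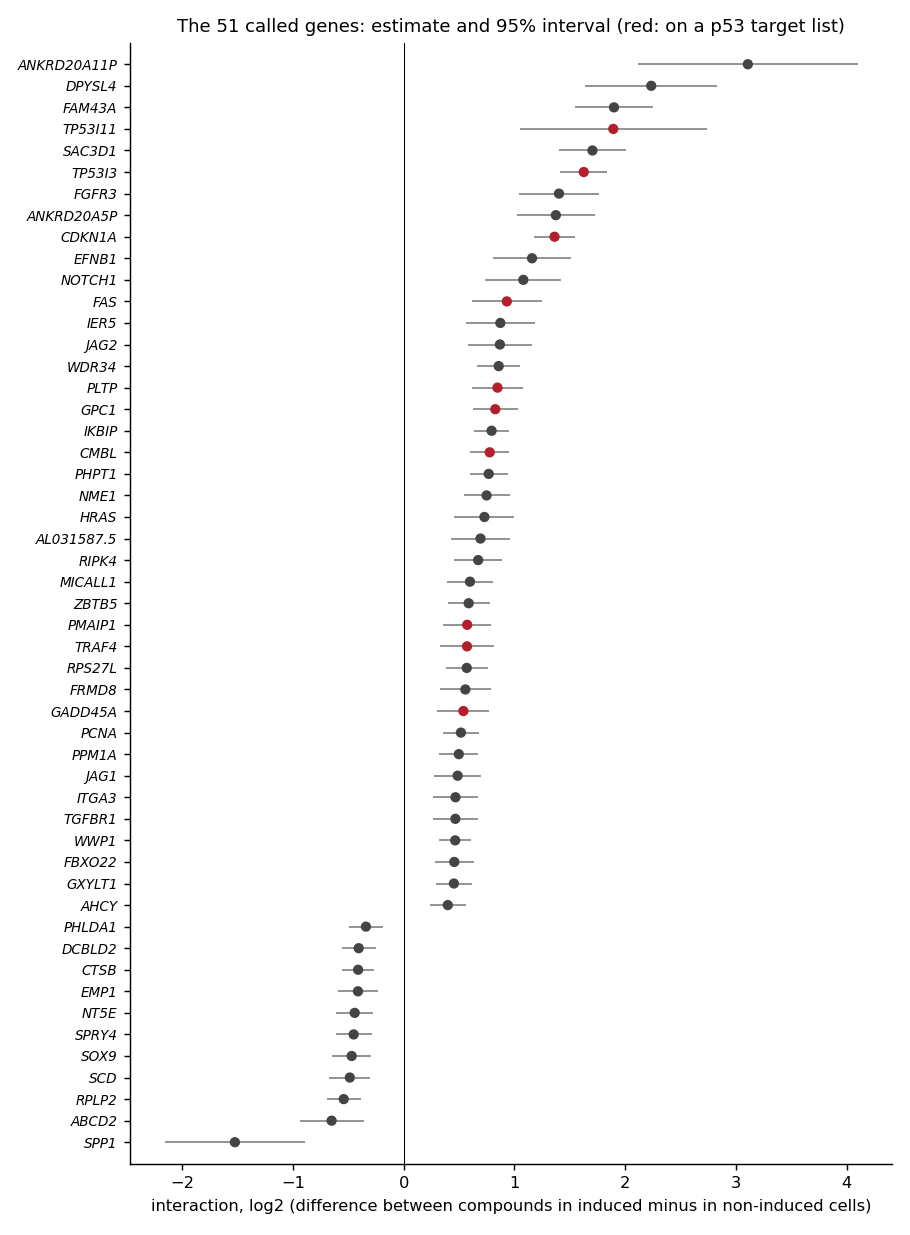
Interaction of the 51 called genes on the log2 scale (points) with 95% intervals (lines), red for genes on a p53 target list. The positive values run up to 3.11 for ANKRD20A11P and the negative ones down to -1.52 for SPP1; the 10 red genes are all on the positive side.

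The 11 genes with a negative interaction fell, or rose less, with induction under the p300/CBP compound. SPP1, which encodes the secreted matrix protein osteopontin, was the lowest expressed of them. It stood at 1.19, 2.00 and 1.12 CPM and 3.87, 3.58 and 3.43 CPM with induction and at 3.37, 2.73 and 4.20 CPM and 2.74, 3.01 and 3.16 CPM without it. The induced libraries of the p300/CBP compound were the low ones, and the interaction was -1.52 ± 0.30 (edgeR adjusted p = 0.0263). SPRY4 and PHLDA1 were the 2 calls among 19 genes of MAPK feedback (10.5%, against 0.326% of all genes). This list had a median of -0.16 and 4 values above 0. SPRY4, an inhibitor of Ras signalling, stood at 104, 108 and 108 CPM and 147, 135 and 137 CPM with induction, at means of 188 ± 3.95 and 179 ± 6.00 CPM without it, and had -0.45 ± 0.08 (adjusted p = 0.00665). PHLDA1 had -0.34 ± 0.07 (adjusted p = 0.0447), with induced means of 191 ± 0.812 and 255 ± 1.10 CPM. Its call was lost in 11 of the 12 fits that left out 1 library. The ectonucleotidase NT5E had -0.44 ± 0.08, the transcription factor SOX9 -0.47 ± 0.09, and the membrane proteins DCBLD2 and EMP1 -0.41 ± 0.07 and -0.41 ± 0.09. CTSB, the lysosomal protease cathepsin B, was the one of the 11 that rose with induction under both compounds, by 0.33 under the p300/CBP and 0.74 under the PCAF/GCN5 compound. Its interaction was -0.41 ± 0.07 (adjusted p = 0.00579). The other 10 fell under the p300/CBP compound and 8 of them under the PCAF/GCN5 compound (over all genes, 13.6% and 14.6% fell). The 11 were chosen by the same libraries, so these counts are a description and nothing is read from the shares over all genes. The 2 others, SPP1 and RPLP2, had 0.26 and 0.09 there and did not pass.

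**Figure D4:**
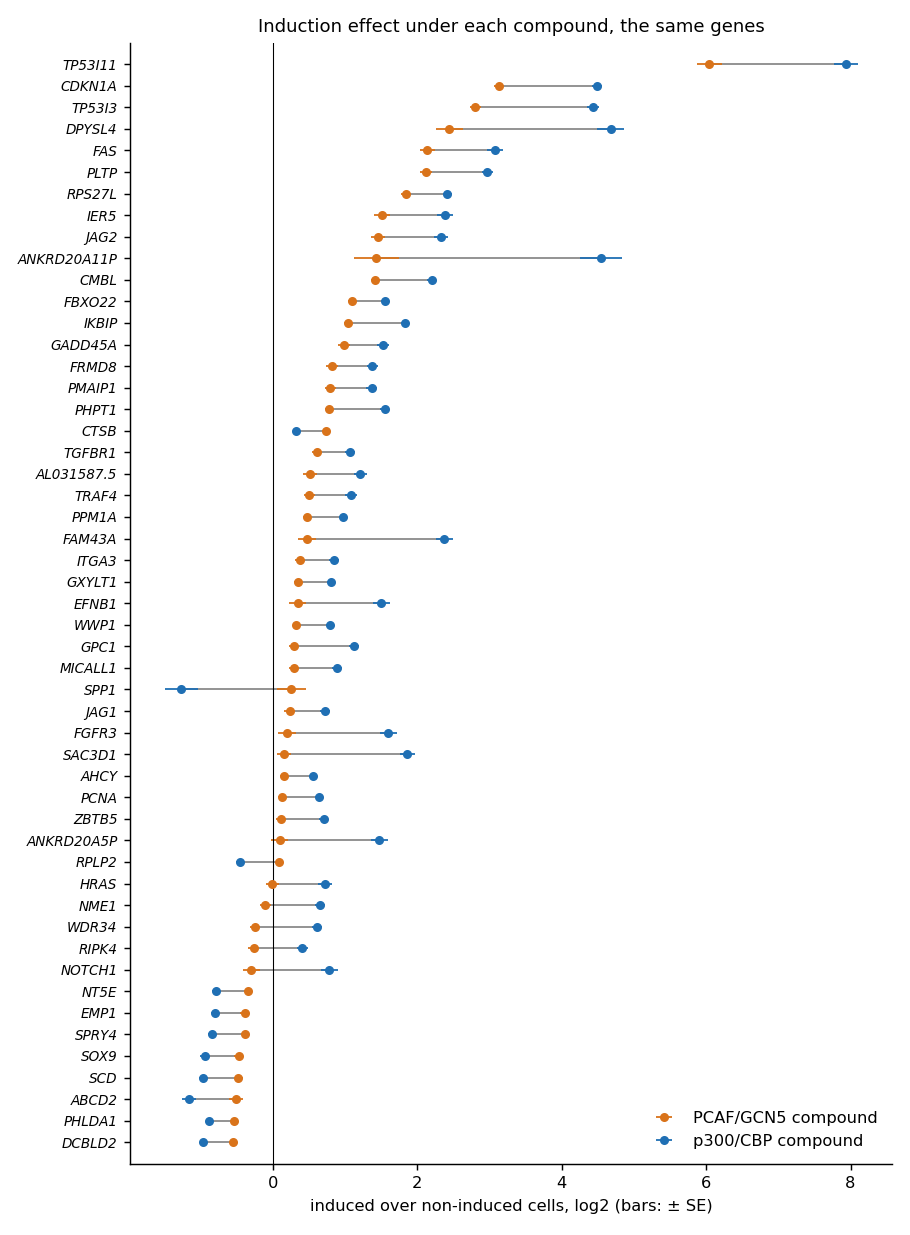
Log2 change with induction, induced over non-induced cells, under the PCAF/GCN5 compound (orange) and the p300/CBP compound (blue) for the 51 genes, with bars of 1 SE from the fit. The blue point lies to the right of the orange one for the 40 genes with a positive interaction and to the left for the 11 with a negative one.

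Read as the response to induction under each compound, the same values show how far some p53 targets moved. Except for MDM2, the targets given here had a positive interaction call, as 10 of the 97 tested did. CDKN1A rose 22.5-fold with induction under the p300/CBP compound and 8.76-fold under the PCAF/GCN5 compound. TP53I3 rose 21.6-fold and 7.00-fold, PLTP 7.85-fold and 4.36-fold, FAS 8.43-fold and 4.42-fold. MDM2 rose 9.70-fold and 10.2-fold. Of the 40 genes with a positive interaction, 8 had no call for induction under the PCAF/GCN5 compound, namely SAC3D1, FGFR3, ANKRD20A5P, NME1, PCNA, NOTCH1, ZBTB5 and HRAS, and 2, WDR34 and RIPK4, fell. FGFR3 had 0.20 ± 0.12 there (95% interval -0.06 to 0.46) against 1.60 ± 0.12 under the p300/CBP compound.

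Genes of the cell cycle differed between the compounds in both states. For the interaction, PCNA was called among 45 genes of S phase and replication (2.22%, against 0.326% of all genes). The list's median interaction was 0.10, with 35 of 45 values above 0. In non-induced cells 34 of the 45 (75.6%) were lower under the p300/CBP compound, against 1.74% of all genes, with a median of -0.42. Over all genes, leaving out 1 library moved the 380 calls in non-induced cells to between 68 and 581. Members of this list and of the mitotic list were not counted in those fits. In induced cells 17 (37.8%) were lower, against 1.99% of all genes, with a median of -0.33. TYMS, which makes thymidylate, had -0.42 without and -0.11 with induction, for an interaction of 0.31 that did not pass (adjusted p = 0.265). FEN1, the flap endonuclease, had -0.60 and -0.33 (interaction adjusted p = 0.614). The helicase loader CDC6 and the helicase subunit MCM4 were lower under the p300/CBP compound in both states, with -0.63 and -0.47 in induced and -0.52 and -0.50 in non-induced cells.

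Of 43 mitotic genes repressed through DREAM, none was called for the interaction, where 0.326% of all genes were, so that this count says little about a list of its size. The list's median was -0.13 and 4 of 43 values were above 0, so that the sign differed from that of the S phase list (no test compared the lists). In induced cells 37 of the 43 (86%) were lower under the p300/CBP compound, against 1.99% of all genes, with a median of -0.40. In non-induced cells 20 (46.5%) were lower, against 1.74% of all genes, with a median of -0.25. TOP2A, the topoisomerase that untangles chromosomes, had -0.57 in induced and -0.31 in non-induced cells, and an interaction of -0.26 (95% interval -0.45 to -0.07, edgeR adjusted p = 0.374). Cyclin B1, encoded by CCNB1, had -0.42 and -0.17 (interaction adjusted p = 0.347). DLGAP5, a spindle protein, had the lowest interaction of the list, -0.38 (95% interval -0.57 to -0.19, adjusted p = 0.108). Its promoter is printed as an example of a window with both elements sought for this list. Capitals mark TTTGAA and CCAAT on either strand.
DLGAP5, chr14:55191536-55191835, minus strand: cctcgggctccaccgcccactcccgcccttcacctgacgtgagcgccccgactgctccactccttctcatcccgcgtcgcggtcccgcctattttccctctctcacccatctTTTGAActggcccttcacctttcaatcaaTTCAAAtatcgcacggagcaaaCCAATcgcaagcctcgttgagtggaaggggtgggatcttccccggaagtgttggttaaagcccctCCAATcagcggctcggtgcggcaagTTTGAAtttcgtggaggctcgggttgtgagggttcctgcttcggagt
Of the 35 mitotic genes with a promoter in the table, 22 (62.9%) held TTTGAA and 25 (71.4%) CCAAT, against 9.46% and 36.6% of promoters of all tested genes, and none held a p53 element as searched. Both elements were found in the promoters of 15 of the mitotic genes that were lower in induced cells. The share of all promoters with both was not computed. The list was made of DREAM targets, so nothing is read from this count.

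**Figure D5:**
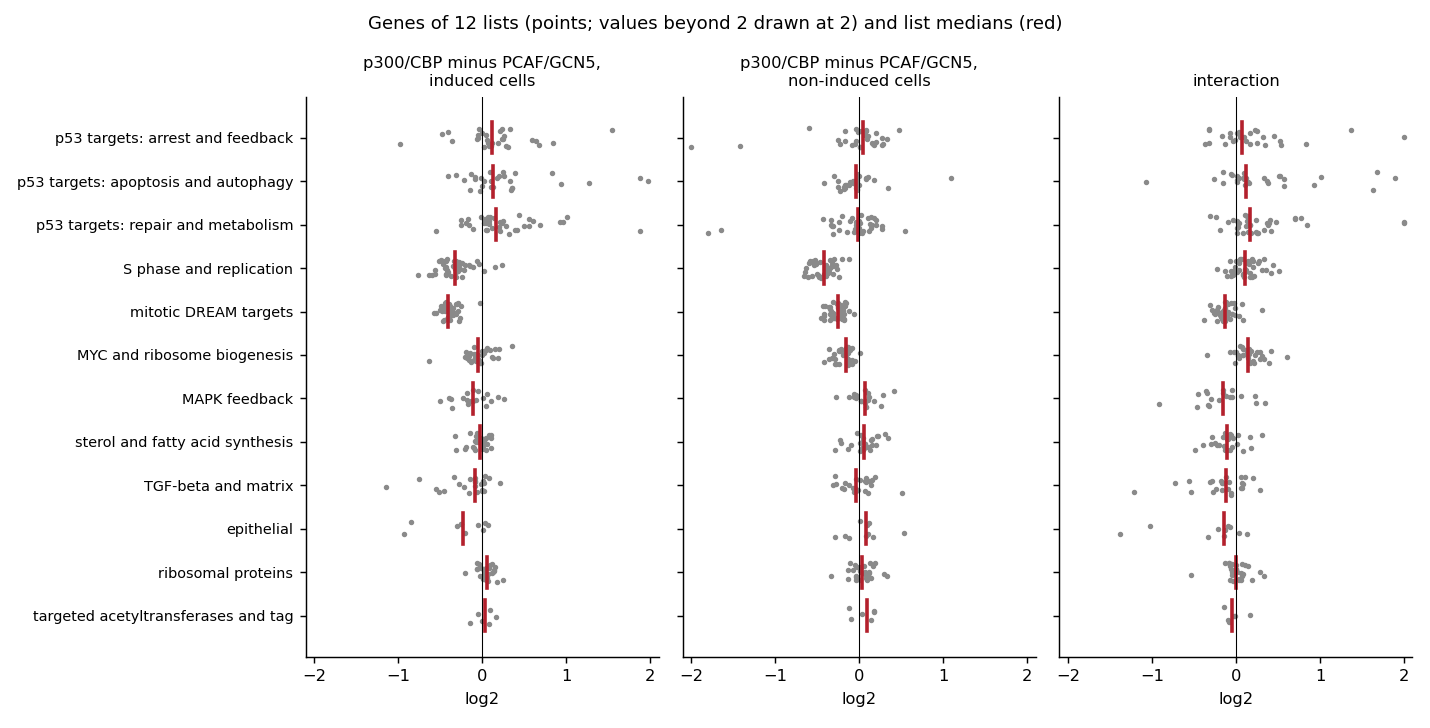
Log2 values of the genes of 12 lists (points, drawn at 2 where beyond it) and list medians (red) for the difference between compounds in induced cells, in non-induced cells and for the interaction. The S phase list lies left of 0 in both states and the mitotic list shifts further left with induction, with interaction medians of 0.10 and -0.13.

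Other lists held few calls or none. Over all genes 0.326% were called, so that the absence of a call says little about lists of these sizes. E2F and pocket protein genes (18 tested), homologous recombination and Fanconi genes (17), and acetyltransferases, deacetylases and their readers (46) had none, with medians of 0.02, 0.00 and 0.00. Of the p53-linked long noncoding RNAs, 6 were tested and none was called. The MYC and ribosome biogenesis list had no call among 32 genes, a median of 0.15 and 28 values above 0. The TGF-beta and matrix list had none among 25, a median of -0.12 and 8 values above 0. Sterol and fatty acid synthesis had SCD alone among 29 (3.45%), with a median of -0.11. The immediate early list had IER5 alone among 28 (3.57%), with 14 values above 0. Lists of interferon, ATF4, unfolded protein, heat shock, hypoxia, NRF2, histone and oxidative phosphorylation genes had no call.

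Calls differed in how far they rested on 1 library. Of the 51, 32 were kept in all 12 fits that left out 1 library each, 28 in those and in all 6 other fits run, and all 51 kept their sign in every fit. Between 6 and 17 of the 51 calls were lost by leaving out 1 library, with the most lost without replicate 1 (17) or replicate 2 (15) of induced cells under the p300/CBP compound. Of the fits that left out a library, PMAIP1 was lost in the one without replicate 1 of that group (adjusted p = 0.0553) and NT5E in the one without replicate 2 (adjusted p = 0.0708). SCD, DCBLD2, SOX9, FBXO22 and AL031587.5 were lost in 2 or 3 of the 12 fits, with adjusted p up to 0.0821. AHCY was lost in 7, FRMD8 and SPP1 in 8, ABCD2, ITGA3 and TRAF4 in 9, EMP1, GADD45A, JAG1 and TGFBR1 in 10, and PHLDA1 and TP53I11 in 11, with adjusted p up to 0.21. Without the PCAF/GCN5 library that stood apart on the second component, 50 genes were called, 42 of them among the 51, and EMP1, FRMD8, GADD45A, ITGA3, JAG1, PHLDA1, TGFBR1, TP53I11 and TRAF4 were lost. Among the DMSO libraries, replicate 3 of non-induced cells had only 9.1 M counts. Replicate 3 of induced DMSO cells had 0.714% mitochondrial transcripts, against 1.84% and 2.14% in replicates 1 and 2. With the DMSO groups in the same fit, 16 of the 51 calls were lost. Of these, RPLP2, RPS27L, IER5 and HRAS, kept in all other fits, had adjusted p of 0.291, 0.479, 0.182 and 0.145. PMAIP1, SCD and SOX9 had 0.0855, 0.133 and 0.0809 there, GADD45A 0.352, EMP1 0.676, FRMD8 and TRAF4 0.145 each, and TGFBR1, ITGA3, JAG1, PHLDA1 and ABCD2 0.0523 to 0.099. In induced DMSO libraries RPS27L stood at 145, 147 and 77.6 CPM and IER5 at 103, 89.6 and 163 CPM. RPLP2 stood there at 332, 279 and 461 CPM and HRAS at 45.5, 44.0 and 68.1 CPM, with replicate 3 apart each time. The part of this spread in the lost calls was not tested.

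Some called genes overlap expressed neighbours, and whether the counting used strand is not given in the sources used here. FAS overlaps ACTA2, PLTP overlaps CTSA, WDR34 overlaps SPTAN1, RPS27L overlaps LACTB, WWP1 overlaps RMDN1 and DCBLD2 overlaps ST3GAL6, all on the other strand. PHPT1 overlaps AJM1 and MAMDC4 on its own strand. Counts of these genes could hold reads of the neighbour, in particular where the neighbour has the higher count, as SPTAN1 and CTSA do.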

How the data were processed

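RNA was measured in 18 libraries made from total RNA with a directional kit, of which 12 entered the fit. StringTie and DESeq2 are named, without versions, in the submitters' processing notes; the aligner, the annotation and the use of strand are not given in the sources used here. The values used are raw counts per gene, as deposited by the authors, per the file headers; the authors' scaled values and fold changes were not used. The deposited tables were joined by gene ID to 60622 genes. ANK2, whose line is broken in 1 table, was left out, and 3 columns of that table were not used because another table holds the same DMSO counts. Gene positions are those of GRCh38, where 79.6% of 58515 GENCODE identifiers had the same position. The fit was that of edgeR, version 4.0.16 under R version 4.3.3 (TMM scaling, low-count filter by group, quasi-likelihood F test, 2-sided, Benjamini-Hochberg over 15656 genes); the script was tested on simulated data. Both within-state differences, both induction contrasts and the interaction come from this 1 fit, and SE is the log2 value over the root of F. CPM use library totals without TMM. Total counts of 19.3 to 29.2 M per library set the precision.

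Members, gene lists and tests were chosen with earlier results of these data known. Genes were named by these rules: the 12 most positive and 12 most negative called protein-coding genes of at least 1 CPM in a group, up to 4 called members of each p53, S phase and mitotic list, up to 8 genes called in both states with opposite signs, the called member with the smallest p of each other list, and 13 genes whether called or not, of which 1 is not reported here. The remaining called genes, and the other list members named, were chosen after their values were seen. Alternatives were DESeq2 1.42.0, other size factors, no filter, all 6 groups, a replicate block, a robust spread estimate, the 6 libraries of a state alone and leaving out each library.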

Additional observations from a re-analysis of the deposited data

Results flagged for a closer look

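For each of the 51 genes called, the difference between compounds (p300/CBP minus PCAF/GCN5, log2) in induced cells differed from that in non-induced cells by the interaction test of edgeR (adjusted p of 0.0447 or less). The values are the change in that difference, and no explanation was tested.

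Values above 1 were ANKRD20A11P 3.11, DPYSL4 2.24, FAM43A 1.90, TP53I11 1.89, SAC3D1 1.71, TP53I3 1.63, FGFR3 1.40, ANKRD20A5P 1.38, CDKN1A 1.36, EFNB1 1.16 and NOTCH1 1.08. Smaller positive values were FAS 0.93, IER5 0.87, JAG2 0.87, WDR34 0.86, PLTP 0.85, GPC1 0.83, IKBIP 0.79, CMBL 0.78, PHPT1 0.77, NME1 0.75 and HRAS 0.73. The remaining positive values were AL031587.5 0.69, RIPK4 0.67, MICALL1 0.60, ZBTB5 0.59, PMAIP1 0.57, TRAF4 0.57, RPS27L 0.57, FRMD8 0.56, GADD45A 0.54, PCNA 0.52, PPM1A 0.50, JAG1 0.49, ITGA3 0.47, TGFBR1 0.47, WWP1 0.47, FBXO22 0.46, GXYLT1 0.45 and AHCY 0.40. Negative values were SPP1 -1.52, ABCD2 -0.65, RPLP2 -0.54, SCD -0.49, SOX9 -0.47, SPRY4 -0.45, NT5E -0.44, EMP1 -0.41, CTSB -0.41, DCBLD2 -0.41 and PHLDA1 -0.34.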

How the results depend on the processing

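The interaction gave 51 calls, and 49 with RLE size factors, 35 with the DMSO groups in the fit, 65 with a robust spread estimate, 108 with DESeq2 (72 higher and 36 lower, or 66.7% higher against 78.4%) and 181 without the filter on low counts, where more genes were tested. The difference between compounds in non-induced cells gave 380 calls (28.2% higher), and 707 with DESeq2, 716 without the filter, 212 with all 6 groups and 165 (14.5% higher) from the 6 libraries of that state alone. In induced cells 530 calls became 394 to 688 over the same settings. Leaving out 1 library gave 34 to 58 calls for the interaction, 239 to 651 in induced cells and 68 to 581 in non-induced cells. In induced cells, the count moved by over 1.5 times without replicates 1, 2 and 3 of the p300/CBP compound (311, 239 and 251) and replicate 1 of the PCAF/GCN5 compound (313). In non-induced cells it did so without non-induced replicates 1, 2 and 3 of the p300/CBP compound (573, 68 and 88), non-induced replicate 2 of the PCAF/GCN5 compound (107), and induced replicate 2 of the p300/CBP (245) and of the PCAF/GCN5 compound (581). The cause was not tested. With a replicate block the interaction gave 45 calls, 41 of them among the 51. No pairing of the libraries by replicate number was seen. Correlations of 18 same-numbered pairs ran from -0.0951 to 0.123, and 2 of 12 libraries correlated best with their own number. With 3 libraries a group, these values cannot show that same-numbered libraries were handled apart. No direction reversed among the 60 named genes. Depth and 3 libraries a group limit genes of low count, such as TP53I11 without induction.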
